A study of Mus musculus with 17 samples.

Results

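DNA replication and G1/S genes encode the proteins that license origins, build and drive the replication fork, and supply its nucleotides. A list of 42 such genes, given by name for their roles, was described in mouse common myeloid progenitors (CMPs), cells that give rise to granulocytes and monocytes as well as to red cells and platelets. They were sorted out of fetal liver or of adult bone marrow. Of the 42 genes, 36 had 10 or more counts in at least 2 libraries and were kept, among 24416 genes in the files and 13558 genes tested. Of the 36, 28 have 1 deposited transcript and 8 have more than 1. The counting set aside reads that fit several transcripts, so the 8 (Mcm10, Gins1, Cdc45, Cdc6, Ccne2, Pola2, Lig1 and Ung) are seen only through the part of their message that is not shared between isoforms. The 6 genes that were not kept (Mcm5, Orc6, Fen1, Tyms, Tk1 and Rpa1) also have more than 1 transcript and lay between 0 and 0.527 CPM (counts scaled to library size) in every library, so their levels are not described.

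The 17 libraries form 7 groups. Wild-type mice gave 3 libraries from fetal liver and 3 from adult bone marrow. Fetal liver also gave 3 libraries labelled Lin28b knockout and 1 library with inducible Let-7, and bone marrow gave 3 libraries with a Let-7b/c knock-out, 2 with inducible LIN28B and 2 with inducible LIN28B under vavcre. The strain is C57BL/6J except for the Let-7b/c knock-out, which is albino black 6. The treatment field of all 17 libraries, wild-type ones included, names doxycycline exposure as the inducer of Lin28b, and the design text describes the vavcre libraries as induced in blood cells specifically. The labels give no age beyond fetal and adult, no promoter of the inducible genes and no map of the deleted alleles. They also do not say that libraries of 1 group came from separate animals, so the p-values measure the spread between libraries, which may be technical.

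Library depth, as counts assigned to transcripts, was 14957111 to 28165554. Lin28b lay between 88.9 and 112 CPM in the libraries labelled Lin28b knockout and between 89.3 and 124 CPM in wild-type fetal liver, so its message does not separate the labels. The libraries labelled Lin28b knockout stand apart from wild-type fetal liver in markers of other cells: the summed level of 11 erythroid markers was 23507 to 27351 CPM against 431 to 607 CPM. The 5 macrophage markers summed to 199.8 to 233 CPM against 7.90 to 11.1 CPM, and the 8 hepatocyte markers to 454 to 1441 CPM against 122 to 131 CPM. Of these lists, Hbb-bt, Hba-a1 and Serpina1a were at 0 in all 17 libraries, as were Kit and Cebpa among 10 myeloid progenitor markers. Because reads that fit several transcripts were set aside, a 0 does not show that the message is absent.

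Before S phase, the origin recognition complex, CDC6 and CDT1 load the MCM2-7 helicase onto origins. Cyclin E with its kinase, together with the DBF4-dependent kinase, then converts the loaded helicase into an active one that contains CDC45 and the GINS complex. Polymerase alpha with primase starts each strand, polymerases delta and epsilon extend it on the PCNA clamp, which the RFC complex loads, and ribonucleotide reductase (RRM1 with RRM2) makes the deoxynucleotides. Many of these genes are activated at the G1/S border by E2F factors, which the retinoblastoma proteins hold back. LIN28B keeps let-7 microRNAs from maturing, and mature let-7 lowers the messages in which it finds a site.

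Because the study varies let-7 and LIN28B, the let-7b and let-7c sequences and the members' matches to them are shown first. The mature sequences are from RefSeq (GRCm38.p6), with the seed, bases 2 to 8, in capitals; let-7b lies at chr15:85707325-85707346 on the plus strand, and let-7c is made from a locus at chr16:77599672-77599693 and another at chr15:85706616-85706637, both on the plus strand.
let-7b: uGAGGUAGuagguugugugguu
let-7c: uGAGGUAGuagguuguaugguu
Both carry the same seed. A match to it, the letters CTACCTC, was found in the 3′ untranslated region (UTR) of only 1 of the 42 members, Rrm2, among the GENCODE vM21 transcripts searched. The site spans bases 130 to 136 of a UTR of 914 bases, with the match in capitals and an A after it.
Rrm2: taaaaagctgtgtagCTACCTCa
That is 2.38% of the members against 9.59% of 12272 tested genes with a UTR, or 0.0249 against 0.0740 matches per kb. The members' UTRs are shorter, with a median of 528.5 bases against 1004 bases. A match is a description of the letters and not evidence of a working site.

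The members' promoters, from 250 bases before to 50 after the start, were searched for the E2F letters TTTCGCGC or TTTGGCGC on both strands, since E2F factors act on many of these genes. Of the 34 members matched in the RefSeq table (GRCm38.p6), 10 held a match (29.4%), against 171 of 10523 tested genes (1.63%) and 0.929% of all 27025 genes in the table. The 10 are Orc1, Cdt1, Mcm3, Mcm5, Mcm6, Mcm7, Pola1, Pole2, Rfc3 and Lig1. A match to the simpler letters CCAAT was present in 58.8% of members and 41.5% of tested genes. The 140 bases before the start are printed for 4 members whose levels moved differently below, with the E2F letters in capitals. They cover Orc1 at chr4:108579314-108579453 on the plus strand, and Mcm6 at chr1:128359706-128359845, Rfc3 at chr5:151651209-151651348 and Pola1 at chrX:93632156-93632295 on the minus strand, each written 5′ to 3′ along its gene.
Orc1: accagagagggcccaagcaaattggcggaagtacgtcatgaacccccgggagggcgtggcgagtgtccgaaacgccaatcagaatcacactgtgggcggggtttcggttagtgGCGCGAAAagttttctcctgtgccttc
Mcm6: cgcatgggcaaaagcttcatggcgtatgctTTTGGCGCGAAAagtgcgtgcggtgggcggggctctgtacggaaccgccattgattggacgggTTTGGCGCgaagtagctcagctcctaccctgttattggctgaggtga
Rfc3: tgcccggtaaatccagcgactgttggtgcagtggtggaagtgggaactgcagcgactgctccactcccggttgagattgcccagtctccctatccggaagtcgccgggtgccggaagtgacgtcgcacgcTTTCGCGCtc
Pola1: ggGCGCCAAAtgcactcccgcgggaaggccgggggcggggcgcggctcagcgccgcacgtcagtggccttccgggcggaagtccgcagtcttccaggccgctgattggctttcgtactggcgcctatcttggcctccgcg
Mcm6 holds 3 matches, a pair of which overlap. In Orc1 and Pola1, and in the Mcm6 match that reads GCGCGAAA, the letters stand on the other strand.

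**Figure D1:**
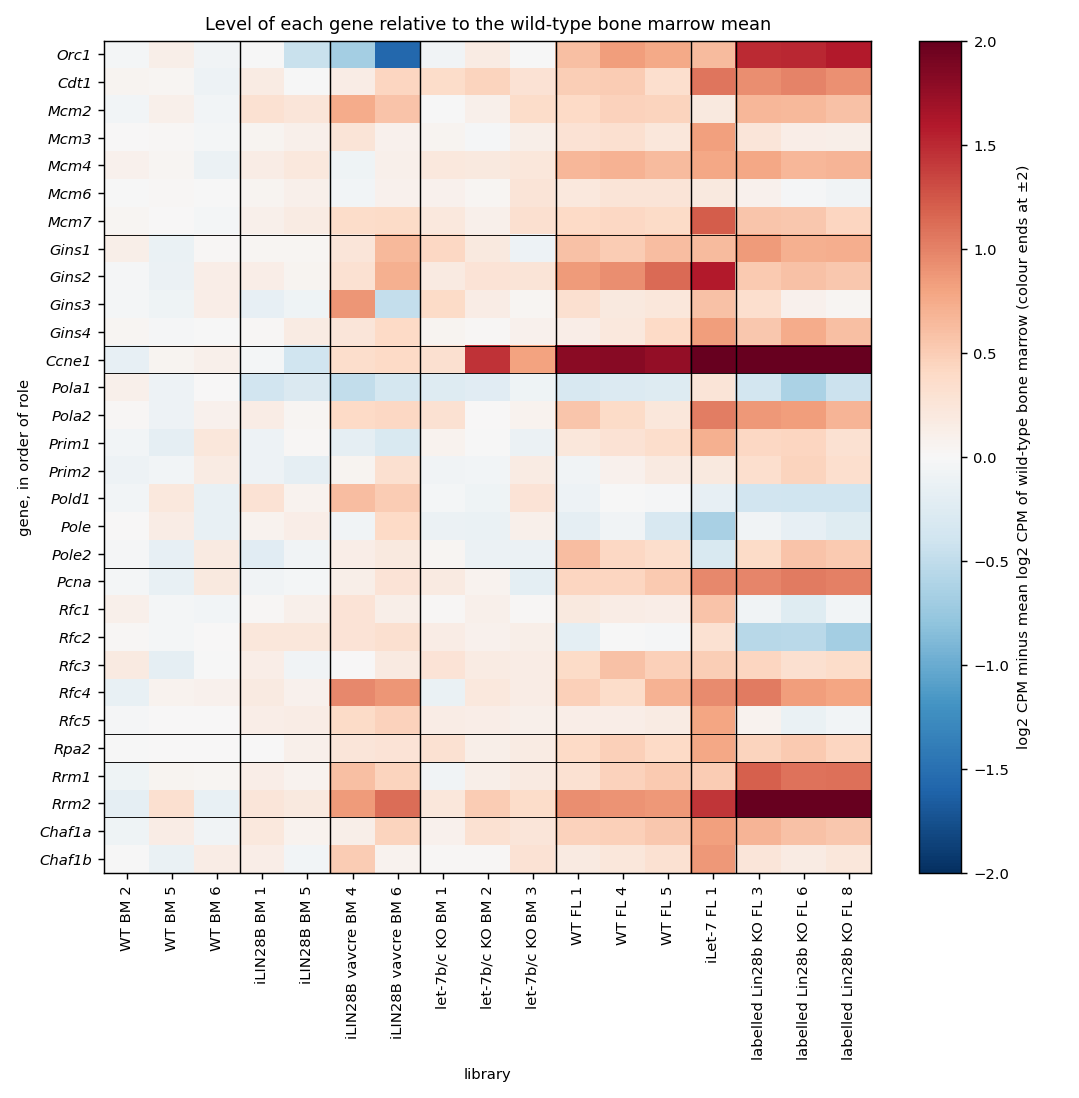
Level of 30 members at 10 CPM or more in wild-type bone marrow, in each of the 17 libraries, as log2 CPM minus the mean of the 3 wild-type bone marrow (BM) libraries; FL is fetal liver, rows follow the order of roles and colours end at ±2. Ccne1 and Rrm2 exceed the upper colour end in the libraries labelled Lin28b knockout, as does Ccne1 in the inducible Let-7 library. Orc1 is lowest in the vavcre libraries. Pola1 lies below the bone marrow mean in the wild-type fetal liver, LIN28B, Let-7b/c knock-out and labelled knockout libraries.

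Per kb of transcript, which allows levels to be compared between genes, Mcm6 was the highest of the 28 members with 1 transcript in wild-type bone marrow, at 551 ± 6.56 CPM per kb (SD, n = 3), and in wild-type fetal liver, at 652 ± 12.4 CPM per kb (SD, n = 3). The measured subunits of the MCM2-7 ring were not at equal message levels: Mcm4, the lowest, was at 143 ± 10.4 CPM per kb in bone marrow, and the highest exceeded the lowest 3.85-fold. That ratio was 2.88 in wild-type fetal liver and 2.37 in the libraries labelled Lin28b knockout. Mcm5 could not be placed among them, because its counts are near 0. Orc1, the subunit of the origin recognition complex whose level varies in the cell cycle, was among the lowest members at 15.3 ± 1.11 CPM per kb in bone marrow. Ccne1 was lower still, at 12.2 ± 1.18 CPM per kb.

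The mean log2 CPM of the 28 members with 1 transcript, given as a description, lay between 7.51 and 7.54 in wild-type bone marrow and between 7.89 and 7.94 in wild-type fetal liver. It was 7.55 to 7.59 in inducible LIN28B marrow without vavcre, 7.76 to 7.77 under vavcre and 7.62 to 7.69 in the Let-7b/c knock-out. The inducible Let-7 library was at 8.21 and the libraries labelled Lin28b knockout at 8.09 to 8.15. The same mean over 18 G2/M genes, which act in mitosis, followed another order, from 7.45 to 7.56 in wild-type bone marrow and 7.36 to 7.59 in wild-type fetal liver to 8.70 to 8.83 in the libraries labelled Lin28b knockout. The replication genes thus separate the wild-type tissues in level where the ranges of the G2/M genes overlap.

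Wild-type fetal liver was compared with wild-type bone marrow to see how the members differ between fetal and adult CMPs. Most members were higher in fetal liver, by 1.18-fold to 3.46-fold among those called. Of the 36 kept, 20 were called higher and 1 lower (edgeR quasi-likelihood test, Benjamini-Hochberg adjusted p under 0.05 over all genes tested), where 13.9% of all tested genes were called higher and 13.2% lower. The median log2 difference was 0.40 over the members and -0.08 over all genes. In these bulk libraries, a change in the share of cycling cells and a change in message per cell cannot be told apart. Of the 9 kept members with E2F letters in the promoter, 7 were called higher (Orc1, Cdt1, Mcm3, Mcm6, Mcm7, Pole2 and Rfc3). Pola1 was called lower and Lig1 was not called. For the later comparisons, counts among the 9 are given with the shares of all tested genes, which vary widely. With the Lin28b knockout label, 3 were called higher and 1 lower (20.8% and 23.0% of all genes). Under vavcre it was 2 and 2 (12.5% and 14.3%), and without vavcre 0 and 0 (0.509% and 0.295%). All LIN28B libraries gave 1 and 2 (6.59% and 7.86%). Vavcre against no vavcre gave 1 and 1 (9.37% and 11.3%), and the Let-7b/c knock-out 1 and 0 (1.33% and 0.922%). LIN28B against that knock-out gave 0 and 1 (18.5% in either direction). Whether calls go with the letters was not tested, and members without the letters were not counted.

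Markers of other cells also differ between the tissues. All 4 mature granulocyte, 4 of 5 macrophage and 2 of 3 megakaryocyte markers were called lower in fetal liver. So were 1 of 7 tested hepatocyte markers (sums of 122 to 131 against 352 to 402 CPM) and 1 of 3 B cell markers. The granulocyte markers summed to 2.58 to 28.9 CPM in fetal liver against 339 to 706 CPM in bone marrow, the macrophage markers to 7.90 to 11.1 against 23.1 to 42.1 CPM, and the megakaryocyte markers to 94.4 to 113 against 289 to 413 CPM. Of 8 tested myeloid progenitor markers, 1 was called higher and 3 lower, and the list summed to 5817 to 7359 against 10638 to 12690 CPM. Of 9 tested erythroid markers, 1 was called higher and none lower, and their sums overlapped. The part of these in the members' differences was not tested.

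Origin licensing had 7 of 8 kept members called higher, and all 8 had a positive log2 difference. Orc1 was at 44.6, 49.9 and 43.7 CPM in bone marrow and at 69.6, 82.1 and 77.9 CPM in fetal liver, a log2 difference of 0.73 ± 0.18 (SE, edgeR adjusted p = 0.00561). Cdt1, which delivers the helicase to origins, was at 149, 147 and 134 CPM in bone marrow and 201, 203 and 179.8 CPM in fetal liver. The fetal and adult libraries did not overlap for either gene. Of the helicase subunits, Mcm4 moved most, from 544, 525 and 472 CPM to 811, 827 and 798 CPM, a log2 difference of 0.66 ± 0.07 (SE, edgeR adjusted p = 5.49e-06). Mcm6 moved least, by a log2 difference of 0.24 ± 0.07, and Mcm2 (0.43), Mcm7 (0.40) and Mcm3 (0.28) lay between them. Cdc6, below 1 CPM in all 6 libraries, was not called.

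Of the 6 genes of helicase activation, 2 were called higher. Gins2, a subunit of the GINS complex, was at 45.8, 43.0 and 51.3 CPM in bone marrow and 84.2, 88.4 and 102 CPM in fetal liver, a log2 difference of 0.97 ± 0.11 (SE, edgeR adjusted p = 1.86e-05). Its partners moved less: Gins1 was called at a log2 difference of 0.56, while Gins3 (0.25) and Gins4 (0.25) were not called. The 4 messages of this complex thus had log2 differences from 0.25 to 0.97. Mcm10 and Cdc45, seen through few counts, were not called.

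Ccne1, the cyclin E1 that drives entry into S phase, had the largest difference of all members. It was at 21.8, 25.4 and 26.2 CPM in bone marrow and at 85.5, 86.1 and 82.5 CPM in fetal liver, 3.46-fold higher (log2 difference 1.79 ± 0.20, SE, edgeR adjusted p = 1.03e-05). The lowest fetal library was above the highest adult library by more than the whole spread within either group. Ccne2, the second cyclin E, was at 1.05 CPM or less in all 6 libraries through its unshared part and was not called.

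The polymerases were divided. Pole2, a subunit of polymerase epsilon, was at 44.6, 40.1 and 51.4 CPM in bone marrow and 69.2, 60.3 and 57.4 CPM in fetal liver, and was called higher with Prim1 and Pola2. Pola1, the catalytic subunit of polymerase alpha, was the only member called lower, at 268, 233 and 253 CPM in bone marrow and 200.4, 207 and 209.7 CPM in fetal liver (log2 difference -0.29 ± 0.08, SE, edgeR adjusted p = 0.0157). That call ended when any of 4 libraries was left out: the adjusted p was 0.0966 without wild-type bone marrow library 2, 0.0591 without library 6, and 0.0569 and 0.0544 without wild-type fetal liver libraries 1 and 4. Pold1, Pole and Prim2 were not called, at log2 differences of -0.05, -0.19 and 0.06.

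Of the clamp and its loader, Pcna (log2 difference 0.46), Rfc3 (0.48) and Rfc4 (0.51) were called higher, and Rfc1, Rfc2 and Rfc5 were not, at 0.16, -0.07 and 0.14. Both subunits of ribonucleotide reductase were higher. Rrm2, the subunit made in S phase, was at 299.6, 427 and 308 CPM in bone marrow and 648, 631 and 619 CPM in fetal liver (log2 difference 0.87 ± 0.12, SE, edgeR adjusted p = 6.66e-05). Rrm1, the large subunit, rose from 639, 707 and 698 CPM to 842, 939 and 975 CPM, a log2 difference of 0.43. Rpa2, which coats single-stranded DNA, and Chaf1a, which deposits histones behind the fork, were also called higher, while Chaf1b was not (0.23, edgeR adjusted p = 0.140). Of the 20 genes called higher, 19 had no overlap between the tissues, and Prim1 overlapped. How many of all called genes had no overlap was not counted.

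Of 57 other tested replication genes, from a list of 70 that holds further fork proteins and the E2F and retinoblastoma regulators, 18 were called higher and 8 lower in fetal liver. E2f5 (27.5 against 13.6 CPM), the nuclease and helicase gene Dna2 (215 against 108 CPM) and Hells (483 against 258 CPM), a chromatin remodeller, had the largest rises. The largest falls were in genes that restrain entry into S phase: Cdkn2c, an inhibitor of CDK4 and CDK6, was at 0.229 to 0.726 CPM in fetal liver and 13.4 to 15.8 CPM in bone marrow. Cdkn1b, which inhibits the cyclin E kinase, was at 5.72 against 12.5 CPM, and Rb1 at 33.2 against 64.7 CPM. Cdkn2c has 2 deposited transcripts, so its level reflects unshared parts. Of 22 tested G2/M genes, 3 were called higher and 4 lower, with a median log2 difference of -0.00084.

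**Figure D2:**
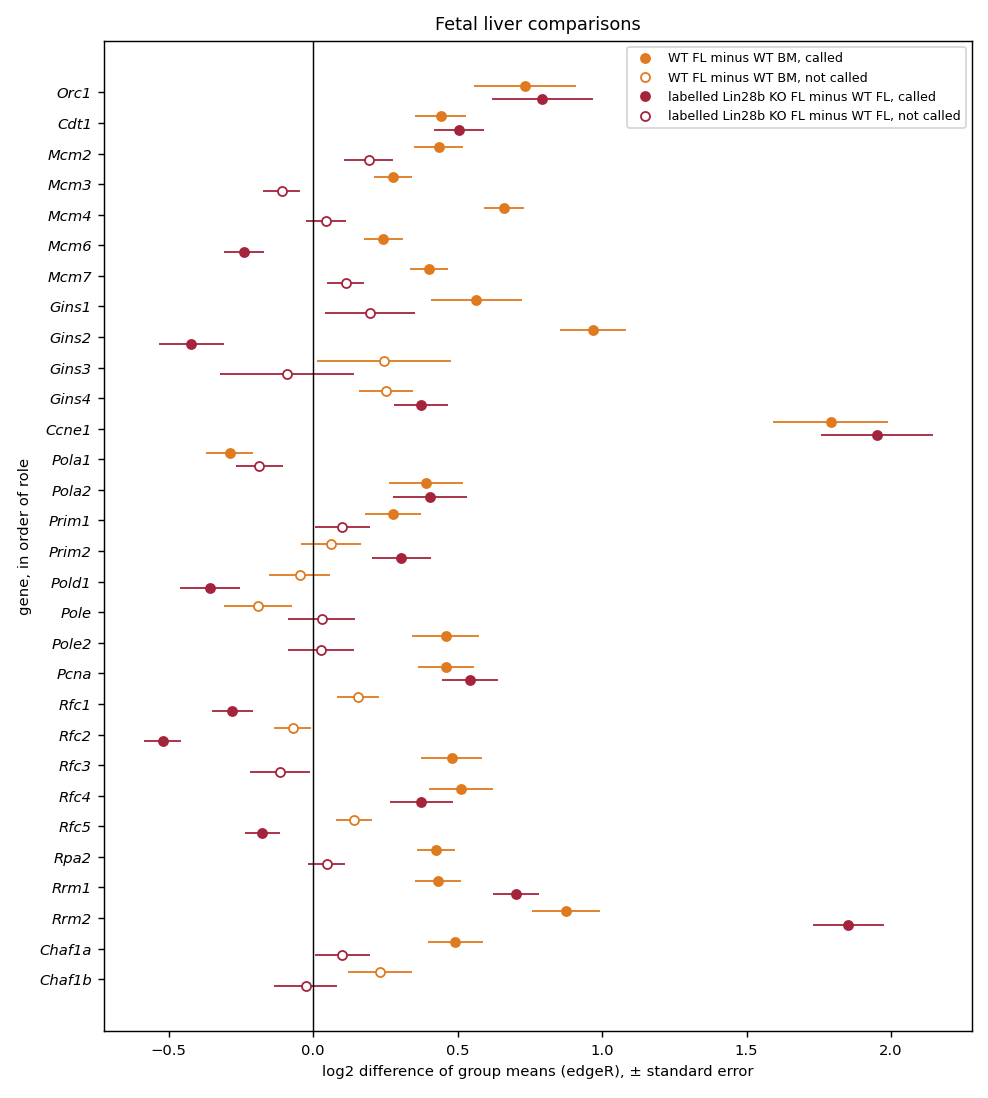
Log2 difference of group means (± standard error, edgeR) for 30 members, in order of role from top to bottom, in wild-type fetal liver minus wild-type bone marrow (orange) and in libraries labelled Lin28b knockout minus wild-type fetal liver (red); filled points are called and open points are not. Orange points lie mostly to the right of 0, and the red points are widely spread, with Ccne1 at 1.95 and Rrm2 at 1.85 and Rfc2 at -0.52.

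Against wild-type fetal liver, the libraries labelled Lin28b knockout showed a large rise in a few members and small changes both ways in the rest. Of the 36 members, 11 were called higher and 6 lower, where 20.8% of all tested genes were called higher and 23.0% lower. The median log2 difference was 0.10 over the members and 0 over all genes, and 30.6% of the members were called higher and 16.7% lower. Markers of other cells move with this comparison: 8 of 9 tested erythroid, 5 of 5 macrophage, 6 of 7 hepatocyte and 4 of 4 mature granulocyte markers were called higher. The granulocyte markers summed to 1067 to 2452 CPM against 2.58 to 28.9 CPM. All 3 megakaryocyte markers were called higher too. Of 8 tested myeloid progenitor markers, 1 was called higher and 5 lower. That list summed to 3510 to 6059 against 5817 to 7359 CPM. The part of these cells in each difference below was not tested.

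Rrm2 had the smallest adjusted p of the members, at 2408, 2146 and 2300 CPM (library values 3, 6 and 8) against 648, 631 and 619 CPM in wild-type fetal liver. The log2 difference was 1.85 ± 0.12 (SE, edgeR adjusted p = 8.02e-09). Ccne1 was at 318, 327 and 336 CPM against 85.5, 86.1 and 82.5 CPM, a log2 difference of 1.95 ± 0.19 (SE, edgeR adjusted p = 8e-07). Both sets of libraries are far apart with small spread inside each. Orc1, at 129, 131 and 138 CPM against 69.6, 82.1 and 77.9 CPM, differed by 0.79 ± 0.17 (SE, log2, edgeR adjusted p = 0.00166).

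Rrm1 was at 1559, 1452 and 1468 CPM against 842, 939 and 975 CPM, a smaller rise than its partner. Per kb, Rrm2 over Rrm1 was 1.26 ± 0.126 in wild-type fetal liver and 2.79 ± 0.084 in the libraries labelled Lin28b knockout (SD, n = 3). In wild-type bone marrow it was 0.921 ± 0.158 (SD, n = 3). The ranges of the 3 groups, 0.806 to 1.10, 1.16 to 1.40 and 2.69 to 2.86, did not overlap. The enzyme needs both subunits, so this ratio describes how evenly the messages are supplied.

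Pcna (log2 difference 0.54), Cdt1 (0.50), Pola2 (0.40), Gins4 (0.37), Rfc4 (0.37) and Prim2 (0.31) were also called higher. Lig1, which seals nicks between Okazaki fragments, was called at 1.05, 0.997 and 1.32 CPM against 0.318, 0.431 and 0.459 CPM (log2 difference 1.47 ± 0.56, SE, edgeR adjusted p = 0.0447). Its level rests on unshared parts of its isoforms and is highest in the libraries labelled Lin28b knockout, and the call ended without any 1 of the 6 libraries (adjusted p from 0.0714 without knockout library 6 to 0.134 without wild-type library 1).

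The members called lower were not spread evenly over the roles. The clamp loader, a ring of 5 subunits, was divided: Rfc2 was at 247, 251 and 228 CPM against 320, 362 and 360.2 CPM (log2 difference -0.52 ± 0.06, SE, edgeR adjusted p = 8.75e-06). Rfc1 was at 253, 225 and 257 CPM against 304, 296 and 292 CPM, and Rfc5 differed by -0.18 on the log2 scale, while Rfc4 was called higher and Rfc3 was not called. Gins2 was at 67.0, 69.9 and 68.1 CPM against 84.2, 88.4 and 102 CPM, a log2 difference of -0.42 ± 0.11 (SE, edgeR adjusted p = 0.00680). Pold1, the catalytic subunit of polymerase delta, was at 300.2, 298 and 296 CPM against 367, 391 and 387 CPM. Mcm6, the most abundant member per kb in wild-type CMPs, differed by -0.24. For all 17 called members the wild-type and the knockout-labelled libraries did not overlap. The share without overlap among all called genes was not counted here. Mcm2, Mcm3, Mcm4 and Mcm7 were not called, at log2 differences of 0.19, -0.11, 0.04 and 0.11.

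Of the other replication genes, 28 of 57 were called higher and 7 lower. The largest rises were in Cdkn2c (33.4 against 0.480 CPM), E2f2 (79.0 against 2.82 CPM) and Rb1 (338 against 33.2 CPM). The largest falls were in Shmt1 (63.4 against 265 CPM), which feeds thymidylate synthesis, Hells (206 against 483 CPM) and Dctpp1 (91.9 against 187 CPM), which clears abnormal nucleotides. So regulators that act in opposite senses on the G1/S step rose together. Of 22 G2/M genes, 20 were called higher, with a median log2 difference of 1.20, led by Ube2c (1227 against 153 CPM) and Mki67 (4896 against 682 CPM).

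**Figure D3:**
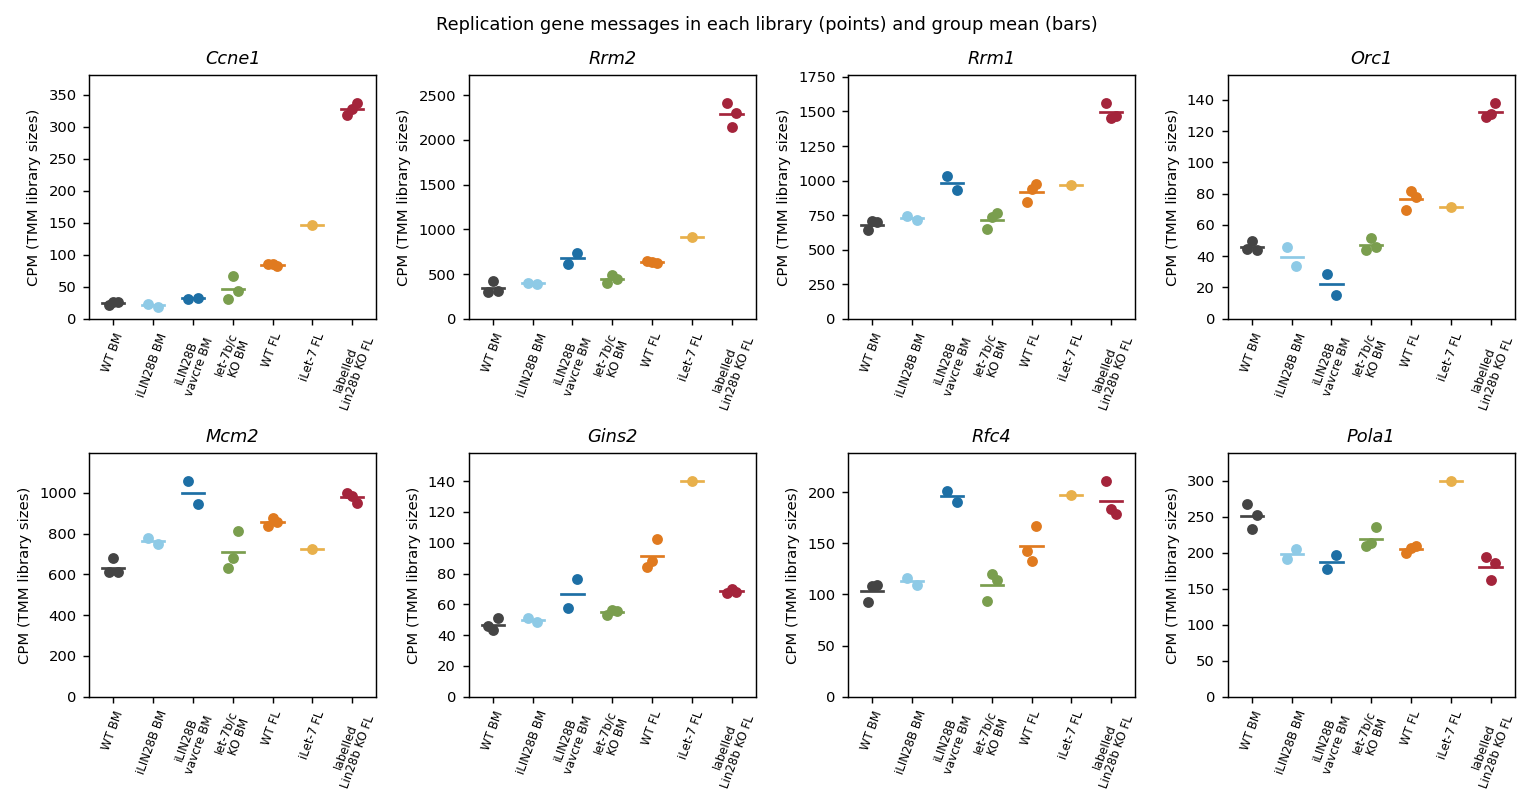
CPM of 8 members in each library (points) with the group mean (bars), for wild-type (WT) bone marrow (BM) and fetal liver (FL), the inducible LIN28B, Let-7 and Let-7b/c knock-out groups and the libraries labelled Lin28b knockout (KO). Ccne1 is between 21.8 and 26.2 CPM in wild-type bone marrow and between 318 and 336 CPM in the labelled knockout, Orc1 is lowest at 15.4 CPM in vavcre library 6, and Rfc4 is near 200 CPM in both vavcre libraries.

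Adult marrow with inducible LIN28B was compared with wild-type bone marrow to see whether the fetal factor moves the members in adult CMPs. Without vavcre, no member was called higher or lower by edgeR, where 0.509% of all genes were called higher and 0.295% lower. At an unadjusted p under 0.05, 4 of the 36 members differed in either direction, where 10.7% of all genes did. DESeq2 called 1 higher (Rfc2, adjusted p = 0.0174) and 1 lower (Pola1, adjusted p = 0.0103), where it called 2.52% of genes higher and 1.92% lower. Pola1 was at 191 and 205 CPM against 268, 233 and 253 CPM, with no overlap (log2 difference -0.34 ± 0.09, SE, edgeR adjusted p = 0.119). Rfc2 was at 424 and 427 CPM against 372, 355 and 368 CPM, also with no overlap (0.22 ± 0.07, SE, edgeR adjusted p = 0.217). The median log2 difference was 0.08 over members and -0.02 over all genes. The mouse Lin28b message was at 2.06 to 3.28 CPM here, 1.73 to 3.92 CPM under vavcre and 0.0586 to 0.745 CPM in wild-type bone marrow. Marker sums differ here too, with myeloid progenitor markers at 6540 to 7077 against 10638 to 12690 CPM. Erythroid markers summed to 654 to 696 against 396 to 591 CPM. By edgeR, 1 of 8 tested myeloid progenitor, 1 of 5 macrophage and 1 of 3 megakaryocyte markers were called lower. Of 9 tested erythroid markers, 1 was called higher. The part of these in the members' values was not tested.

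Under vavcre, 13 members were called higher and 2 lower, where 12.5% of all genes were called higher and 14.3% lower. These are 36.1% and 5.56% of the members. The median log2 difference was 0.29 over members and -0.09 over all genes. None of the 15 overlapped with wild-type bone marrow, but the same share over all called genes was not counted. The fit on only the 2 groups compared called 8 higher. The vavcre libraries are deeper (21779095 and 22218742 counts) than the 2 without vavcre (14957111 and 17661908). Their B cell markers summed to 18.2 to 65.1 CPM against 7.50 to 8.67 CPM in wild-type bone marrow, their erythroid markers to 785 to 892 against 396 to 591 CPM and their mature granulocyte markers to 376 to 2183 against 339 to 706 CPM. By edgeR, 2 of 3 B cell and 3 of 9 tested erythroid markers were called higher, and 1 of 5 macrophage and 1 of 3 megakaryocyte markers lower. The part of these in the differences was not tested.

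Rrm2 was at 611 and 737 CPM under vavcre against 299.6, 427 and 308 CPM in wild-type bone marrow, 1.95-fold higher (log2 difference 0.97 ± 0.13, SE, edgeR adjusted p = 9.16e-05). Rfc4 was at 202 and 190.3 CPM against 92.6, 108 and 109 CPM, 1.90-fold higher (log2 difference 0.92 ± 0.12, SE, edgeR adjusted p = 7.61e-05). Both vavcre libraries were well above the wild-type range for these genes. Mcm2 was at 1057 and 944 CPM against 610, 680.1 and 612 CPM (log2 difference 0.66 ± 0.09, SE, edgeR adjusted p = 0.000142). Its partners in the ring did not all follow: Mcm7 was called at 0.38, and Mcm3, Mcm4 and Mcm6 were not called, at 0.17, 0.01 and 0.02. Pold1 was at 598 and 555 CPM against 376, 455 and 352 CPM, a log2 difference of 0.55.

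Of the 5 clamp loader subunits, Rfc2, Rfc4 and Rfc5 were called higher, and Rfc1, at 0.19, and Rfc3, at 0.09, were not. Rrm1 (log2 difference 0.53), Gins2 (0.52), Pola2 (0.40), Gins4 (0.32), Cdt1 (0.29) and Rpa2 (0.26) were also called higher. Orc1 went the other way: it was at 28.8 and 15.4 CPM against 44.6, 49.9 and 43.7 CPM (log2 difference -1.06 ± 0.20, SE, edgeR adjusted p = 0.00138). The size depends on 1 library: the difference was -0.68 without vavcre library 6 and -1.57 without vavcre library 4, with the call kept in both cases. Pola1, at 178 and 197 CPM against 268, 233 and 253 CPM, was also lower (-0.42 ± 0.09, SE, edgeR adjusted p = 0.00339). Ccne1 was not called, at 31.3 and 32.3 CPM against 21.8, 25.4 and 26.2 CPM.

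Of 57 other replication genes, 17 were called higher and 5 lower under vavcre. Chtf8 (248 against 88.8 CPM), part of an alternative clamp loader, E2f5 (26.9 against 13.6 CPM) and Asf1a (219 against 118 CPM), a histone chaperone, rose most. Cdkn1b (5.09 against 12.5 CPM), Pold4 (22.5 against 44.9 CPM), a small subunit of polymerase delta, and E2f7 (19.7 against 38.0 CPM), a repressor of E2F targets, fell most. Pold1, the catalytic subunit of polymerase delta, thus rose where Pold4 fell. The group means of its other subunits were also higher, Pold2 at 310 against 168 CPM and Pold3 at 390 against 218 CPM. Of 22 G2/M genes, 11 were called higher and 1 lower (median log2 difference 0.52), led by Plk1 (397 against 141 CPM).

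The 2 kinds of LIN28B libraries were then compared with each other, as a test of whether their levels differ. Of the 36 members, 7 were called higher under vavcre and 1 lower, where 9.37% of all genes were called higher and 11.3% lower. Rfc4 (202 and 190.3 CPM against 116 and 109 CPM, log2 difference 0.80 ± 0.14, SE, edgeR adjusted p = 0.000885) and Rrm2 (611 and 737 CPM against 405 and 389 CPM, 0.77 ± 0.15, SE, edgeR adjusted p = 0.00185) differed most. Rrm1 was at 1036 and 930.2 CPM against 747 and 715 CPM, and Mcm2, Mcm7, Rfc5 and Gins2 were the others called higher. Orc1 was lower, at 28.8 and 15.4 CPM against 45.8 and 33.7 CPM (edgeR adjusted p = 0.0130).

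Several of these 8 calls rest on single libraries. Only 2 of the higher calls remained without library 5 of the group without vavcre, and the Orc1 call ended without its library 1 (adjusted p = 0.121) or without vavcre library 6 (0.0657). The Gins2 call ended without library 1 or 5 of the group without vavcre (0.113 and 0.196) or without vavcre library 6 (0.337), and the Rrm1 call ended without library 5 (0.0518). With only these 4 libraries in the fit, 2 members were called higher and 0 lower. G2/M genes moved with this comparison too, with 12 of 22 called higher.

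The 4 LIN28B libraries as 1 group gave 8 members called higher and 2 lower against wild-type bone marrow, where 6.59% of all genes were called higher and 7.86% lower. The 8 were Rrm2, Rfc4, Mcm2, Pold1, Rrm1, Rfc5, Rfc2 and Mcm7, and the 2 lower were Orc1 and Pola1. For all 8, both vavcre libraries were above both libraries without vavcre. The Orc1 call ended without library 5 of the group without vavcre (adjusted p = 0.0672) or wild-type bone marrow library 5 (0.0590). The Pold1 call ended without library 1 of the group without vavcre (0.0725) or wild-type bone marrow libraries 2 (0.0776) or 6 (0.0857).

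**Figure D4:**
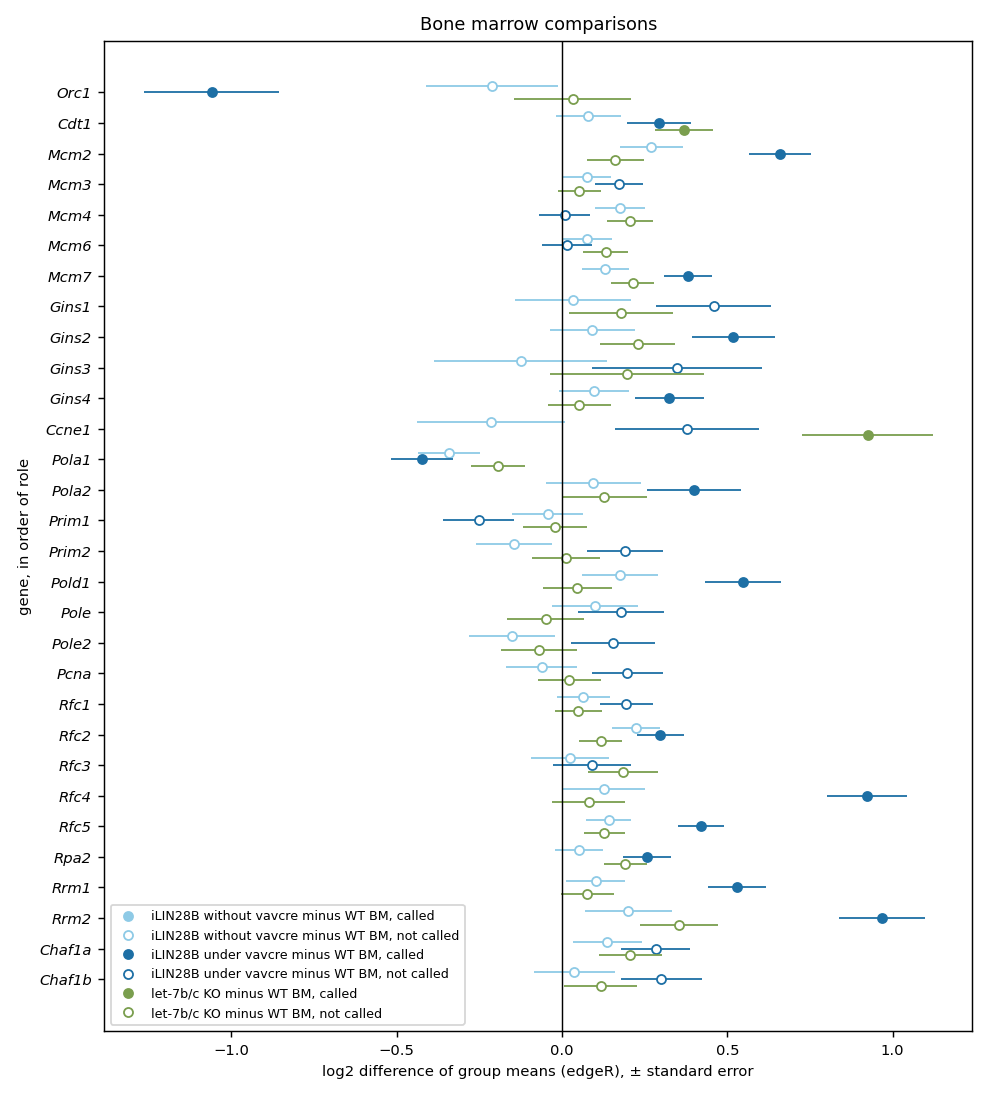
Log2 difference from wild-type bone marrow (BM) of 30 members (± standard error, edgeR), for inducible LIN28B without vavcre (light blue), inducible LIN28B under vavcre (dark blue) and the Let-7b/c knock-out (KO, green); filled points are called and open points are not. All light blue points are open, dark blue points reach 0.97 for Rrm2 and -1.06 for Orc1, and the only filled green points are Ccne1 and Cdt1.

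In the Let-7b/c knock-out, 2 members were called higher and none lower against wild-type bone marrow, where 1.33% of all genes were called higher and 0.922% lower. At an unadjusted p under 0.05, 8 of the 36 members differed in either direction, where 14.5% of all genes did. DESeq2 called 6 higher and 0 lower, where it called 4.37% of genes higher and 2.97% lower. The knock-out differs from the wild type in strain as well as in genotype, and the effects of the 2 cannot be told apart. The median log2 difference was 0.12 over members and 0.00 over all genes. Markers of other cells move here too: 2 of 3 megakaryocyte markers were called lower, with sums of 112 to 209.7 CPM against 289 to 413 CPM, as were 1 of 9 tested erythroid and 1 of 7 tested hepatocyte markers. Of 8 tested myeloid progenitor markers, 1 was called higher and 1 lower, and the list summed to 14929 to 18140 against 10638 to 12690 CPM. The part of these in the differences was not tested.

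Ccne1 was at 30.3, 66.2 and 42.8 CPM in the knock-out and 21.8, 25.4 and 26.2 CPM in the wild type, 1.90-fold higher (log2 difference 0.92 ± 0.20, SE, edgeR adjusted p = 0.0224). The knock-out libraries spread over more than the whole wild-type range but did not overlap it. Without knock-out library 2, the highest, the difference was 0.60 and the adjusted p 0.0547, and the call also ended without wild-type library 2 (0.104), 5 (0.0598) or 6 (0.0571). Cdt1 was at 185, 195 and 176 CPM against 149, 147 and 134 CPM (log2 difference 0.37 ± 0.09, SE, edgeR adjusted p = 0.0386). Its call ended without knock-out library 1 (0.0655) or 2 (0.120), or wild-type library 2 (0.0792), 5 (0.0703) or 6 (0.120). With only these 2 groups in the fit, neither was called.

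Rrm2, the member with a let-7 seed match, was at 399.8, 484 and 439 CPM in the knock-out and at 299.6, 427 and 308 CPM in the wild type. The groups overlap, and the difference of 0.35 ± 0.12 (SE, log2) was not called (edgeR adjusted p = 0.156). Orc1, Pcna, Prim1 and Prim2 had log2 differences between -0.02 and 0.03. Of the other replication genes, 1 of 57 was called higher, Dna2 (137 against 108 CPM). Dna2 was also the only one called higher in inducible LIN28B marrow without vavcre, at 166 against 108 CPM. Both comparisons share the same 3 wild-type libraries. Of 22 G2/M genes, 1 was called lower, Mki67.

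Between the 4 LIN28B libraries and the 3 of the Let-7b/c knock-out, 6 of the 36 members were called, 4 higher with LIN28B and 2 lower, where 18.5% of all tested genes were called in either direction (1084 higher and 1422 lower of 13558). Rfc4 (log2 difference 0.44), Pold1 (0.31), Mcm2 (0.30) and Rrm1 (0.24) were higher with LIN28B, and Ccne1 (-0.84) and Orc1 (-0.67) were lower. These are 11.1% and 5.56% of the members. The libraries of the 2 genotypes overlapped for all 6. Strain differs here as well as genotype, and their effects cannot be told apart. Of 22 G2/M genes, 11 were called higher with LIN28B, as were 2 of 3 B cell, 2 of 9 tested erythroid and 2 of 3 megakaryocyte markers. Myeloid progenitor markers had 1 higher and 3 lower of 8 tested, hepatocyte markers 1 and 1 of 7, and macrophage markers 0 and 1 of 5. The part of these in the members' differences was not tested. The 4 higher calls all ended without knock-out library 1, and 1 remained without knock-out library 2 or without library 1 of the LIN28B group without vavcre, and 2 without vavcre library 4. Without vavcre library 6, 4 members were called lower.

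The inducible Let-7 library is 1 library, so its values have no replicate check and no test. Its depth was 28165554 counts, the highest of the 17. Of the 30 members at 10 CPM or more, 7 were over 1.5-fold above the wild-type fetal liver mean and outside its range, and 1 was as far below, where 22.7% of 6692 genes were as far above and 27.0% as far below. In all, 22 of the 30 members lay above the wild-type range, 5 below and 3 inside, where 47.6% of the 6692 genes lay above it and 44.1% below. The median ratio to the wild-type mean was 1.31 over the members and 1.03 over all genes. Summed markers also lay outside the wild-type range. Myeloid progenitor markers were at 17918 against 5817 to 7359 CPM, and hepatocyte markers, nearly all Trf, at 226 against 122 to 131 CPM. Macrophage markers, nearly all Cd68, were at 28.3 against 7.90 to 11.1 CPM. Erythroid (296 against 431 to 607 CPM) and megakaryocyte markers (32.1 against 94.4 to 113 CPM) were lower, as were mature granulocyte and B cell markers. The part of these in the members' values was not tested.

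Mcm7 was at 1358 CPM in this library against 765.6 to 780.7 CPM in wild-type fetal liver, 1.76 times the mean. Ccne1 was at 146 CPM against 82.5 to 86.1 CPM, 1.72 times the mean. The other 5 were Rfc5 (442 against 278 to 286 CPM), Pola2, Chaf1b, Cdt1 (301 against 179.8 to 203 CPM) and Gins2 (139.9 against 84.2 to 102 CPM). The ring did not move as a unit here either: Mcm3 was at 1.45 times and Mcm2 at 0.847 times the wild-type mean. Pole2 was the member far below, at 36.6 CPM against 57.4 to 69.2 CPM, with Pole, the catalytic subunit of the same polymerase, at 0.729 times the mean. Rrm2, with its let-7 seed match, was at 916 CPM against 619 to 648 CPM. Of the 8 members seen through unshared isoform parts, 4 were near 0 here: Cdc6 was at 0.0775, Ccne2 at 0.0388 and Lig1 at 0.0388 CPM. Mcm10 had 0 counts, which allows a level of up to 0.116 CPM (3 counts).

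**Figure D5:**
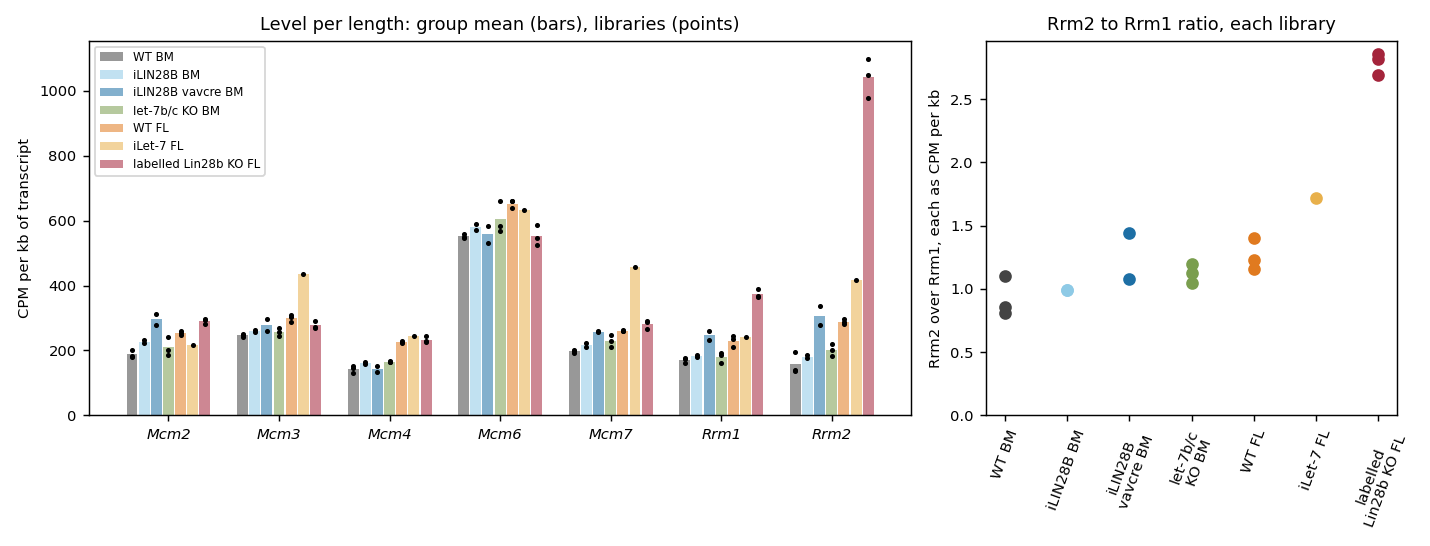
Left, CPM per kb of transcript for the 5 measured MCM2-7 subunits with 1 transcript and the ribonucleotide reductase subunits Rrm1 and Rrm2, as group means (bars from 0) with each library as a point; right, the ratio of Rrm2 to Rrm1 per kb in each library. WT is wild type, BM bone marrow, FL fetal liver and KO knock-out. Mcm6 is the tallest of the 5 in every group, and the ratio is 0.806 to 1.10 in wild-type bone marrow and 2.69 to 2.86 in the libraries labelled Lin28b knockout.

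Across the 7 groups, the ratio of Rrm2 to Rrm1 per kb was lowest in wild-type bone marrow and in inducible LIN28B marrow without vavcre (0.988 and 0.991). The Let-7b/c knock-out (1.04 to 1.19) overlapped wild-type bone marrow, and the vavcre libraries (1.07 and 1.44) spanned the wild-type fetal liver range. The inducible Let-7 library was at 1.72. The order of Ccne1 was different: it was lowest in the LIN28B group without vavcre (23.7 and 18.5 CPM) and overlapped there with wild-type bone marrow, and the highest Let-7b/c knock-out library, at 66.2 CPM, was below every fetal liver library. Orc1 was between 15.4 and 51.8 CPM in all 10 adult libraries and between 69.6 and 138 CPM in all 7 fetal liver libraries.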

How the data were processed

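RNA was measured in sorted CMPs, in 17 libraries of 7 groups set by the labels. Per the labels' protocols, total RNA was taken with Trizol and made into libraries with a SMARTer ultra-low-input kit. Cutadapt, TopHat2, HTSeq and the build mm10 stand in the submitters' processing notes, while versions, settings and strand were not given in the sources used. Each deposited file holds the authors' unnormalized counts for 33818 transcripts, although tests had been planned for counts per gene. Library sizes leave out uniquely placed reads that fit several transcripts (23.8% to 29.8%) or none (8.87% to 19.3%). Accessions were named from RefSeq (33435) and GENCODE vM21 (191), 192 had no name, and counts were summed per gene.

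Genes were tested with edgeR 4.0.16 in R 4.3.3 (quasi-likelihood, TMM, filterByExpr) in 1 fit of 17 libraries and 7 group means with 10 residual degrees of freedom, and called at an adjusted p under 0.05. CPM uses TMM library sizes. The mean log2 levels add a small constant to each count, and the deviations of same-numbered libraries use a prior count of 2. PCR reads carry no molecular identifiers here, so counting precision covers counting error only. Alternatives were DESeq2 1.42.0, upper-quartile scaling, no low-count filter, genes with 1 transcript, only the groups compared, and each library left out. Library values are given for up to 4 called members per comparison and direction with the largest differences, and for the 2 with the smallest p where few were called; other lists give up to 3 called genes each way at 10 CPM or more. Members and lists were chosen with earlier results of these data known. Tables and figures were made with Python 3.11.15.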

Additional observations from a re-analysis of the deposited data

Results flagged for a closer look

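The levels of 8 members differed between inducible LIN28B libraries with and without vavcre by the edgeR test of that difference. Of the 36 kept, 7 were higher under vavcre and 1 lower, where 9.37% of all genes were called higher and 11.3% lower. No group carries vavcre without inducible LIN28B, so the part of vavcre itself cannot be told apart. The log2 difference, vavcre minus no vavcre, was 0.80 for Rfc4, 0.77 for Rrm2, 0.43 for Rrm1, 0.43 for Gins2, 0.39 for Mcm2, 0.28 for Rfc5, 0.25 for Mcm7 and -0.85 for Orc1. The adjusted p ranged from 0.000885 for Rfc4 to 0.0420 for Gins2. The 2 vavcre libraries also had more counts than the 2 without vavcre, and higher summed B cell, erythroid and myeloid progenitor markers. The last summed to 10106 to 11838 against 6540 to 7077 CPM. By edgeR, 2 of 8 tested myeloid progenitor markers were called higher and 1 lower, and of 9 tested erythroid markers 1 and 1. None of 3 B cell markers was called, and 1 of 7 tested hepatocyte and 1 of 5 macrophage markers were called higher. The part of these in the 8 differences was not tested.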

How the results depend on the processing

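Among 40 tests of 13 named members, 447 alternatives were run: 385 kept the direction and the side of the threshold, 60 lost the call, 2 gained one (the DESeq2 calls of Pola1 and Rfc2 without vavcre), and none reversed. DESeq2 called 1 member higher and 1 lower without vavcre, and 6 higher in the Let-7b/c knock-out. With only the groups compared, the members called were 1 lower for all LIN28B libraries, 8 higher under vavcre, 2 higher and 0 lower for vavcre against no vavcre, 0 higher for the Let-7b/c knock-out, and 1 higher and 0 lower for LIN28B against the Let-7b/c knock-out. The mean level of the 28 members in the libraries labelled Lin28b knockout minus wild-type fetal liver was 0.20, or 0.27 with DESeq2 size factors, and under vavcre minus wild-type bone marrow 0.24, or 0.22 with upper-quartile sizes.

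Leaving out 1 library at a time, the members called in wild-type fetal liver were 17 to 20 higher and 0 to 1 lower, in the labelled Lin28b knockout 8 to 10 higher and 5 to 7 lower, with all LIN28B libraries 6 to 11 higher and 1 to 3 lower, and under vavcre 11 to 15 higher and 2 to 3 lower. They were 2 to 8 higher and 0 to 1 lower for vavcre against no vavcre, 0 to 2 higher for the Let-7b/c knock-out, and 0 to 4 higher and 2 to 4 lower for LIN28B against it. The causes were not tested. Over all genes, DESeq2 called 466 higher and 317 lower in the Let-7b/c knock-out (180 and 125 by edgeR) and 229 and 174 without vavcre (69 and 40). The 4 LIN28B libraries and wild-type bone marrow share 2 library numbers, 5 and 6, and no other comparison shares more than 1. With these numbers as a replicate block, 9 members were called higher and 2 lower (8 and 2 without it). The labels do not say that a number marks a shared animal or batch. The deviations of same-numbered libraries from their group means had correlations of -0.04 and 0.03 across genes. Each LIN28B group has 2 libraries, so a deviation also carries the other library, and these correlations cannot tell whether a number marks something shared. Depth limits the members below 3 CPM, where calls turn on few counts.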

Other observations

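The genes here were chosen after their values were seen. Among the regulators of the G1/S step, E2f4, an E2F factor of repressor complexes, was at 209 ± 4.55 CPM in wild-type bone marrow, 299 ± 8.90 CPM in wild-type fetal liver and 1010 ± 34.4 CPM in the libraries labelled Lin28b knockout (SD, n = 3). Gmnn, which blocks CDT1 after licensing, was at 83.6 ± 5.66, 131 ± 7.39 and 170.0 ± 7.59 CPM in the same order. Polymerase delta subunits in the inducible Let-7 library lay apart from wild-type fetal liver in both directions, with Pold2 at 366 against 176 to 206 CPM and Pold4 at 8.10 against 23.1 to 29.1 CPM. Dna2 was at 101 CPM in that library against 196 to 232 CPM.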
